A study of Mus musculus with 2 samples.

Results

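The clustered histone genes are the genes whose symbols start with Hist1h, Hist2h, Hist3h or Hist4h, and 67 of the 31053 genes in the tables met that rule. They were measured by droplet single-cell RNA sequencing in the utricular sensory epithelium of WT mice, as 1 library at postnatal day 2 (P2) and 1 library at embryonic day 14 (E14). The utricle is the balance organ of the inner ear that senses linear acceleration, and its epithelium was loosened with thermolysin and dissociated with Accutase at both ages. The study's methods describe ears taken from several embryos or postnatal animals of either sex, without tying a number of animals to either library, and the labels name no other allele and no treatment. All 67 IDs and symbols matched the GENCODE M21 annotation (GRCm38), with 54 members in the Hist1 cluster on chromosome 13, 10 in Hist2 on chromosome 3, 2 in Hist3 on chromosome 11 and 1 in Hist4 on chromosome 6. By the protein that they encode, 6 members are linker histones (H1), 18 are H2A, 18 are H2B, 12 are H3 and 13 are H4.

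Histones H2A, H2B, H3 and H4 form the spool around which DNA is wound, and H1 binds where the DNA enters and leaves it. Most clustered genes are replication-dependent: they are transcribed when DNA is copied, and their mRNAs end in a conserved stem-loop instead of a poly(A) tail, which the stem-loop binding protein Slbp recognises. Some members also give polyadenylated transcripts that run past the stem-loop, which is known in cells that have stopped dividing. The library kit primes on poly(A), so an mRNA without a tail is a poor template for it. Hair cells of the utricle do not divide, while supporting cells divide during development.

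Levels are given as CPM, the unique molecular identifiers (UMIs) of a gene divided by all UMIs of the pooled cells and scaled to 1000000. Brackets hold exact 95% intervals, Poisson for levels and conditional binomial for ratios of levels, which describe only the error of counting. Each age was a single library, so no difference has a replicate check, no test across samples was possible, and age cannot be told apart from the library. A cell "with" carried at least 1 UMI of Mki67 or Top2a, genes of dividing cells, and a cell "without" carried none. Filtering kept 3877 cells at P2 and 10138 cells at E14, with medians of 9813 and 6758 UMIs, and 23 barcodes occurred in both libraries. Cells were clustered without the members, and clusters were named from fixed markers: hair cell-like (1091 cells at P2, 156 at E14, with Myo7a, Pou4f3 and Gfi1 among the markers), supporting cell-like (1208 and 766, with Otog, Jag1 and Hey1), nonsensory epithelium-like (169 and 677) and mesenchymal cell-like (33 and 4219). Clusters that hold 1376 cells at P2 and 3401 cells at E14 stayed unnamed. P2 clusters 1 and 2 were shallow (medians of 1372 and 1757 UMIs), and supporting cell-like cluster 1 rested on 3 markers, Tectb, Gjb2 and Sparcl1. The markers given for a class were not met by each of its clusters. At P2 only cluster 3 (347 cells) met Otog, Jag1 and Hey1 together, and hair cell-like clusters 2 and 6 did not meet Myo7a and Gfi1, respectively. Since mesenchymal cell-like cells were 33 of the kept cells at P2 and 4219 at E14, a difference over all cells mixes cell types with levels per cell.

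The sequences below show the stem-loop and the transcript ends that separate the members. Stem-loops are given with up to 7 bases on each side, as far as the transcript goes, 5′ to 3′, from the annotated transcripts in GENCODE M21 and written as DNA, with the stem-loop in capitals. They come from the H2B and H2A genes with the most UMIs, an H4 gene and an H3 gene.
Hist3h2ba: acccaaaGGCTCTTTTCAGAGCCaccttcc
Hist1h2ap: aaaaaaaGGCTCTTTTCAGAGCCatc
Hist1h4d: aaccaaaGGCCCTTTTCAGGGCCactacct
Hist1h3c: aaaaaaaGGCTCTTTTAAGAGCCacctaag
The stem-loop (a fixed pattern of 16 bases, read on the transcript strand) was present in the annotated transcripts of 46 of 67 members and in 0.274% of 58725 other protein-coding transcripts. The form printed for Hist3h2ba and Hist1h2ap was shared by 26 members of H1, H2A, H2B and H3. The form printed for Hist1h4d was carried by 7 members, all of them H4.

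The next lines show the last 30 bases of the annotated transcripts of the 3 members with the most UMIs, with a poly(A) signal (AATAAA or ATTAAA) in capitals where there is one.
Hist3h2ba: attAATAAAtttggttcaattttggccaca
Hist1h2ap: aaaaaaaaaaaggctcttttcagagccatc
Hist1h2ae: ccAATAAAtgggtcaatttttttcagattc
The transcripts of Hist3h2ba and Hist1h2ae ran 169 and 151 bases past the stem-loop and ended near a poly(A) signal. That of Hist1h2ap ended 3 bases after it and had no such signal, but a run of A preceded its stem-loop, and its longest run of A was 12 bases, against a median of 4 over the members and of 5 over other transcripts. Whether such a run primed reads was not tested.

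A few members carried most of the signal. The 67 members had 163057 UMIs over the kept cells of both libraries, and 15 of them held 90% of these. Hist3h2ba, an H2B gene at chr11:58948920-58949533 on the plus strand, alone held 26.3%, and Hist1h2ap, an H2A gene at chr13:21833026-21833507 on the minus strand, held 14.5%. Of the 67, 64 had at least 1 UMI, 62 had at least 10 and 55 had at least 50. Hist1h2aa, Hist1h2ba and Hist1h4m had none at either age, with interval upper bounds of 0.0813 CPM at P2 and 0.0444 CPM at E14. Hist1h2bq and Hist2h2aa2 had 1 UMI each, both at E14. H2B and H2A genes held 36.1% and 33.2% of the UMIs, H1 genes 20.3%, H4 genes 6.99% and H3 genes 3.38%.

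Over all kept cells, the summed level of the members was 1143 CPM at P2, against 1340 CPM at E14, a ratio of 0.853 (0.844 to 0.862). The ratio was 0.494 without Hist3h2ba. It lay on the other side of 1, at 1.02, after thinning to 4000 UMIs, which left out cells with fewer. Members stood on both sides of this ratio. Of the 55 members with at least 50 UMIs, 38 were at least 2-fold lower at P2, where 15% of all 15406 genes with that many UMIs were, and 4 were at least 2-fold higher, where 18.5% of all genes were. The median log2 ratio was -1.78 for these members and 0.10 for all genes. The 4 higher members were Hist2h2aa1 (27.5 CPM at P2, against 7.12 CPM at E14, 3.87-fold), Hist3h2ba (579.2 against 199.4 CPM, 2.90-fold), Hist2h2be (6.86 against 3.12 CPM, 2.20-fold) and Hist3h2a (116.2 against 56.2 CPM, 2.07-fold). All 4 lie outside Hist1, but so do members that were at least 2-fold lower at P2. These were Hist2h2bb (0.213), Hist2h2ab (0.305), Hist4h4 (0.362) and Hist2h4 (0.383). In cells without Mki67 or Top2a alone, where 40 members had 50 UMIs, 6 were at least 2-fold higher and 16 at least 2-fold lower at P2, against 18% and 13.5% of all genes, and the summed ratio was 1.71 (1.68 to 1.73). In cells with, 49 members had 50 UMIs, and 2 were at least 2-fold higher and 33 at least 2-fold lower at P2, against 15.1% and 13.8% of all genes.

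**Figure D1:**
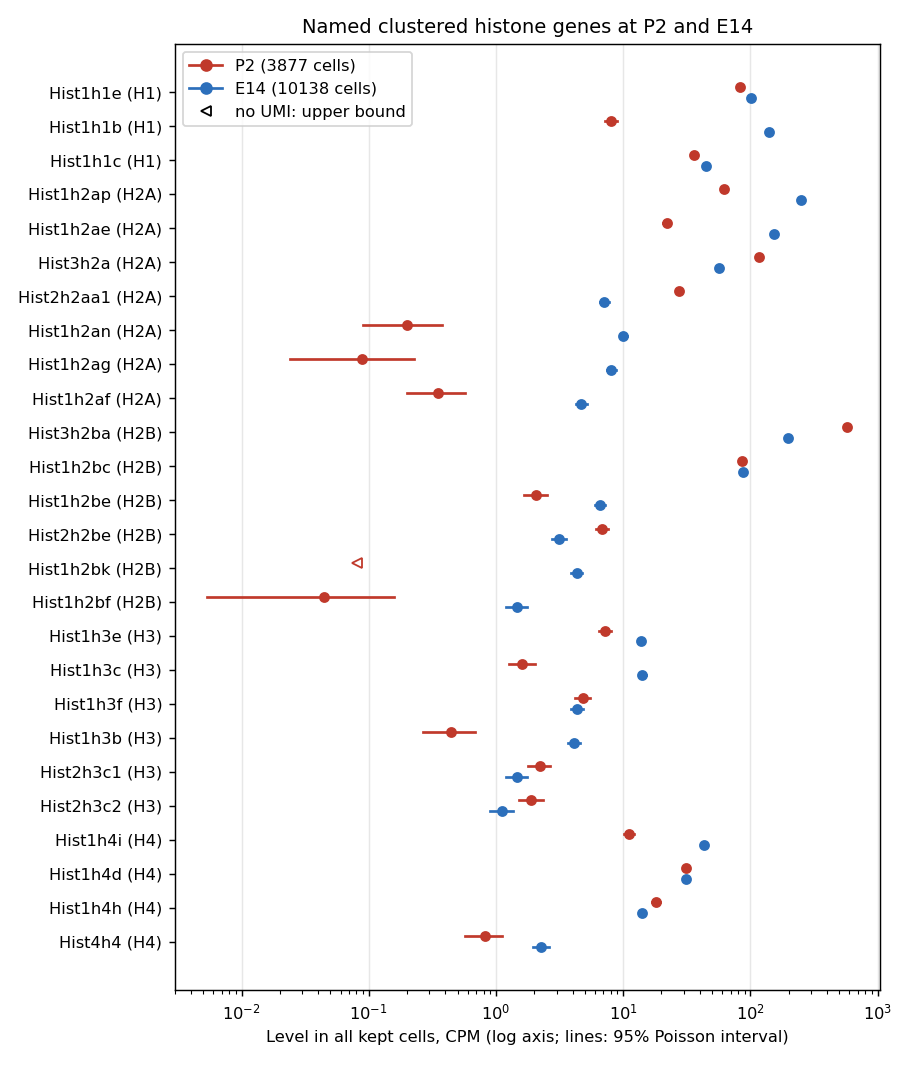
Levels of the 26 named members in all kept cells, in CPM on a log axis, at P2 (red, upper) and E14 (blue, lower), with 95% Poisson intervals as lines. Hist3h2ba stands at 579.2 CPM at P2 and 199.4 CPM at E14, while Hist1h1b stands at 8.03 CPM at P2 and 139.1 CPM at E14, and Hist1h2bk, with no UMI at P2, is drawn at its upper bound.

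Within the 2 sensory cell classes the age ratios were not those of the whole libraries. In hair cell-like cells the summed level was 2173 CPM at P2 (2147 to 2198), against 1967 CPM at E14 (1910 to 2026), a ratio of 1.10 (1.07 to 1.14). Among supporting cell-like cells it reached 703.5 CPM at P2 (690.6 to 716.5), against 1291 CPM at E14 (1270 to 1311), which is 0.545 (0.532 to 0.559). This class need not hold the same cells at both ages. At E14 it joined cluster 8 (430 cells, 1363 CPM) and the Zpld1-led cluster 12 (336 cells, 1191 CPM). P2 cluster 5 (287 cells, 625.2 CPM), with Zpld1 among its leading genes, stayed unnamed. Nonsensory epithelium-like cells gave 676.5 CPM at P2 and 912.8 CPM at E14, a ratio of 0.741 (0.704 to 0.780), and of 19 members with 50 UMIs there 0 were at least 2-fold higher and 8 at least 2-fold lower at P2, against 8.43% and 9.5% of all genes. Of 27 members with 50 UMIs in supporting cell-like cells, 14 were at least 2-fold lower at P2 and 1 was higher, against 7.4% and 9.37% of all genes. Of 17 in hair cell-like cells, 3 were at least 2-fold lower and 4 higher, against 3.95% and 7.55% of all genes. The hair cell-like ratio depended on 1 gene and on the cell filter: without Hist3h2ba it was 0.993, and with doublets kept, when 573 E14 cells took the name in place of 156, it was 1.57.

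Hair cell-like cells had higher summed levels than supporting cell-like cells at both ages. The ratio of summed levels was 3.09 (3.02 to 3.16) at P2 and 1.52 (1.47 to 1.58) at E14. P2 cluster 10 (164 cells) carried 10 hair cell markers, Myo7a, Otof and Tmc1 among them, but stayed unnamed because its median was 1837 UMIs and none of those markers was among its 10 leading genes. Its summed level was 746.9 CPM (666.3 to 834.6), against 703.5 CPM in supporting cell-like cells, which is 1.06 (0.946 to 1.19). With cluster 10 counted as hair cell-like, an alternative chosen after seeing the data, the P2 ratio of hair cell-like over supporting cell-like cells was 3.03 (2.96 to 3.09). H2B genes made up most of the gap, with 1543 CPM in hair cell-like and 357.7 CPM in supporting cell-like cells at P2, and 1376 and 545.2 CPM at E14. H1 genes stood the other way at E14, with 104.0 CPM in hair cell-like cells and 298.3 CPM in supporting cell-like ones (ratio 0.349, 0.304 to 0.398), but not at P2, with 149.9 and 117.4 CPM, a ratio of 1.28. Among 21 members with 50 UMIs at P2, 9 were at least 2-fold higher and 2 at least 2-fold lower in hair cell-like cells, against 18.4% and 20% of all genes. Among 22 at E14, 4 were higher and 11 lower, against 16.8% and 21.2%.

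Hist3h2ba made up most of the hair cell-like sum. It had 1357 CPM in hair cell-like and 294.2 CPM in supporting cell-like cells at P2, which is 4.61 (4.47 to 4.76), and 1146 and 291.6 CPM at E14, a ratio of 3.93 (3.73 to 4.14). Between the ages it stood close within each class, at 1.18-fold (1.14 to 1.23) P2 over E14 in hair cell-like cells and 1.01-fold (0.965 to 1.05) in supporting cell-like cells, against 2.90-fold over all cells. Its lowest cluster was an immune cell-like cluster at E14, with 27.5 CPM. Hist3h2a, the H2A gene that neighbours it at chr11:58954685-58956830, followed the same order, with 269.7 CPM in hair cell-like and 55.6 CPM in supporting cell-like cells at P2 (4.85-fold) and 311.5 and 79.9 CPM at E14 (3.90-fold). Hist2h2aa1 of Hist2 did so too, with 68.6 CPM in hair cell-like and 11.8 CPM in supporting cell-like cells at P2 (5.79-fold) and 28.2 and 9.10 CPM at E14. The last 300 bases of its transcript are wholly shared, in 31-base words, with Hist2h2aa2, so the counting may have divided or dropped their reads.

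**Figure D2:**
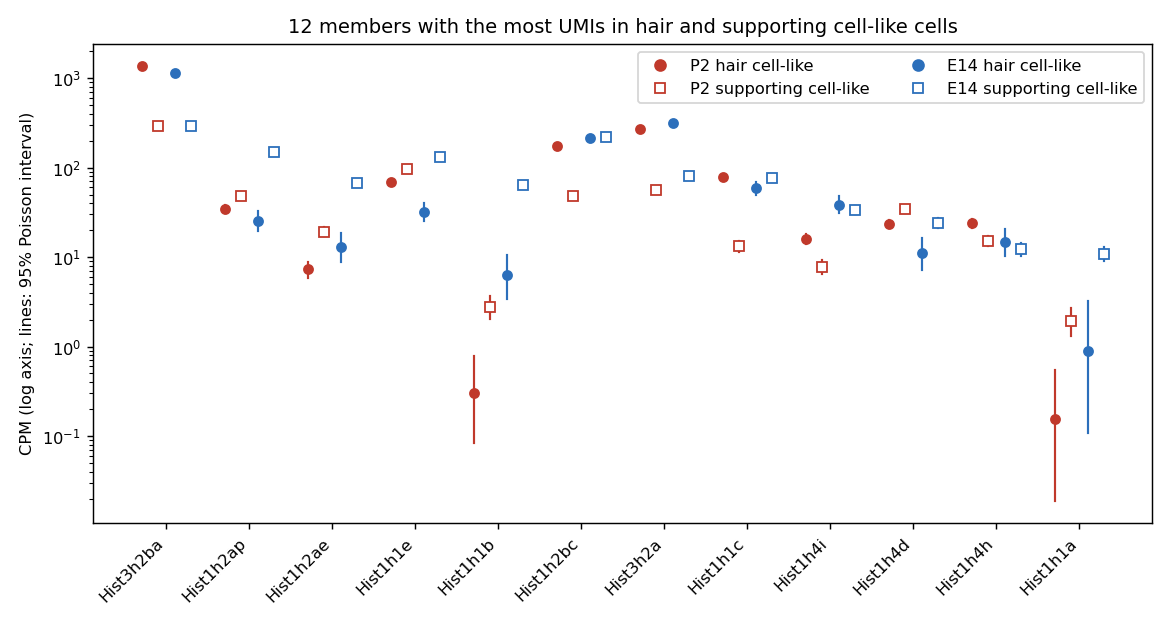
Levels of the 12 members with the most UMIs, in CPM on a log axis, in hair cell-like (filled circles) and supporting cell-like cells (open squares) at P2 (red) and E14 (blue), with 95% Poisson intervals. Hist3h2ba and Hist3h2a are higher in hair cell-like cells at both ages, and Hist1h1b is at 0.306 CPM in hair cell-like and 2.78 CPM in supporting cell-like cells at P2, against 6.28 and 64.2 CPM at E14.

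Hist1h1c and Hist1h2bc were higher in hair cell-like cells at P2 but not at E14. Hist1h1c, which encodes the linker histone H1.2, had 77.7 CPM in hair cell-like and 13.1 CPM in supporting cell-like cells at P2, a ratio of 5.91 (5.10 to 6.89), but 58.7 and 77.6 CPM at E14, a ratio of 0.757 (0.625 to 0.910). Hist1h2bc had 173.8 and 48.1 CPM at P2, a ratio of 3.61 (3.33 to 3.92), but 213.8 and 221.4 CPM at E14, a ratio of 0.966 (0.874 to 1.07). In supporting cell-like cells alone, a class that need not hold the same cells at both ages, P2 over E14 was 0.169 (0.145 to 0.197) for Hist1h1c. For Hist1h2bc it was 0.217 (0.200 to 0.236). Hist1h1e, which encodes H1.4, was 2.16-fold (1.70 to 2.79) higher at P2 in hair cell-like cells and 0.749-fold (0.697 to 0.804) in supporting cell-like cells.

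The members also differed among the hair cell-like clusters of P2, which were formed without them. Cluster 6 (255 cells, led by Grp, Nnat, Eya2 and Atoh1, the last a gene of young hair cells) had the lowest sum, 1226 CPM (1195 to 1258). Cluster 12 (122 cells, led by Spp1, Scg2 and Kcna10) had the highest, 3620 CPM (3526 to 3716), and cluster 16 (59 cells, led by Ocm, a calcium buffer) had 3086 CPM (2977 to 3198). Hist3h2ba had 2465 CPM in cluster 12 and 1682 CPM in cluster 16, against 700.5 CPM in cluster 6. Hist1h1c had 195.0 and 186.0 CPM there, and over cluster 6 these were ratios of 12.2 (9.44 to 15.9) and 11.6 (8.84 to 15.4). Hist1h4i and Hist1h4h, which encode H4, were 7.89-fold and 5.65-fold higher in cluster 16 than in cluster 6, on 48 and 64 UMIs. Hist1h1e and Hist1h4d stood the other way in the same pair: Hist1h1e had 26.4 CPM in cluster 16, against 71.7 CPM in cluster 6, and Hist1h4d had 4.06 CPM (4 UMIs), against 25.4 CPM. The shallow cluster 2 (366 cells), also led by Ocm, had 94.3 CPM of Hist1h1e and 52.6 CPM of Hist1h4d, both above cluster 6. Its 93.3 CPM of Hist1h1c and 24.8 CPM of Hist1h4i lay between those of clusters 6 and 16. These clusters are cells of 1 library and were picked for their values, so the ratios describe that library.

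Cells with Mki67 or Top2a stood far above cells without at E14. There 2070 of 10138 cells (20.4%) were with, and their summed level was 2863 CPM, against 655.5 CPM in cells without, a ratio of 4.37 (4.31 to 4.42). The medians over single cells were 1415 and 412.3 CPM, and 9.66% of cells with and 0.248% of cells without had over 10000 CPM. Of 54 members with 50 UMIs, 45 were at least 2-fold higher in cells with, where 3.65% of all 14529 genes were, and 0 were at least 2-fold lower, where 4.38% of all genes were. Among the classes, the ratio was 11.9 in mesenchymal cell-like, 6.47 in glial cell-like, 3.04 in nonsensory epithelium-like and 1.57 in supporting cell-like cells. In mesenchymal cell-like cells the level without was 326.0 CPM, and in supporting cell-like cells it was 1056 CPM, beside 3867 and 1654 CPM in cells with. Of 43 members with 50 UMIs in mesenchymal cell-like cells, 38 were at least 2-fold higher and 0 lower, against 4.48% and 3.17% of all genes, of 18 in nonsensory epithelium-like cells 12 and 0, against 3.05% and 4.25%, and of 20 in supporting cell-like cells 7 and 0, against 2.62% and 0.724%. Clusters 5 and 13, whose leading genes include Top2a, Tk1 and Plk1, genes of dividing cells, and members themselves, held 26.1% and 9.42% of the cells with, and cluster 5 carried the mesenchymal cell-like name. Without these clusters the E14 ratio was 3.09 (3.05 to 3.13). Cluster 5 held 32787 of the 34433 member UMIs of mesenchymal cell-like cells with, so the 11.9 of that class rests largely on it. Within mesenchymal cell-like clusters 0, 2 and 3 the ratios were 1.85 (1.71 to 2.01), 1.86 (1.69 to 2.05) and 1.41 (1.26 to 1.58).

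At P2 the contrast was smaller in the sum than at E14 and depended on cluster 17 and on Hist3h2ba. Only 154 of 3877 cells (3.97%) were with, and their level was 1404 CPM, against 1120 CPM in cells without, a ratio of 1.25 (1.22 to 1.29). The medians over single cells stood the other way, at 825.2 CPM in cells with and 847.1 CPM in cells without. Of 28 members with 50 UMIs, 12 were at least 2-fold higher and 1 at least 2-fold lower in cells with, against 1.65% and 5.02% of all 13429 genes. Cluster 17, with 37 cells led by Ube2c, Hist1h1b and Top2a, held 28 of the 154 cells with and 40.2% of their member UMIs, and its level was 3874 CPM (3713 to 4041), the highest of the 19 clusters of P2. Without it the ratio was 0.878 (0.846 to 0.910), on the other side of 1, over classes with unlike levels. Within classes the ratio was 1.14 (1.07 to 1.21) in supporting cell-like and 0.807 (0.756 to 0.861) in hair cell-like cells. In the unnamed cluster 0 it was 1.19 (1.07 to 1.31). Hist3h2ba weighs on the sum over all cells: without that gene the P2 ratio was 2.04 (1.97 to 2.11).

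A UMI of Mki67 or Top2a can also come from RNA free in the suspension, and its chance grows with depth. Thinning to 4000 UMIs left out cells with fewer, 1307 at P2 and 3133 at E14, so thinned and unthinned shares are not of the same cells. Of the 2570 P2 cells that remained, 1.95% (1.45 to 2.56) were with, and of the 7005 E14 cells 17.2% (16.3 to 18.1). Before thinning, 3.97% and 20.4% of all kept cells were with. In hair cell-like cells, which should lack both genes, the thinned share was 0.871% (0.351 to 1.79) at P2 and 0.641% (0.0162 to 3.52) at E14, with medians of 14072 and 14554 UMIs before thinning. Supporting cell-like cells gave 1.01% (0.438 to 1.99) at P2, within the hair cell-like interval, and 15.2% (12.4 to 18.3) at E14, far above it, with medians of 9435 and 8540 UMIs. The 2 shares at P2 had overlapping intervals, and the part of free RNA in them was not tested. Among cells with over cells without in these classes at P2, the counts were 0 of 16 members at least 2-fold higher and 3 lower in hair cell-like cells, against 2.48% and 6.82% of all genes, and 2 of 15 higher and 0 lower in supporting cell-like cells, against 0.97% and 3.01%. Single members stood higher in supporting cell-like cells with, Hist1h2ap at 3.52 (2.99 to 4.15) and Hist1h1b at 5.05 (2.52 to 9.68), on 201 and 15 UMIs, while in hair cell-like cells Hist1h2ap had 27.8 CPM in cells with and 34.8 CPM in cells without, with a ratio interval that held 1 (0.444 to 1.33). The 4 cells with of supporting cell-like cluster 11 had a median of 70182.5 UMIs, against 11753 UMIs in its cells without. They held 4.63% of the Hist1h1b and 6.33% of the Hist1h2ap UMIs of all P2 cells with. The 22 cells with of supporting cell-like cluster 3 held 1.16% and 9.5%. Over all cells left after thinning to 4000 UMIs, the ratios of cells with over cells without were 2.47 (2.27 to 2.69) at P2 and 6.52 (6.38 to 6.67) at E14.

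**Figure D3:**
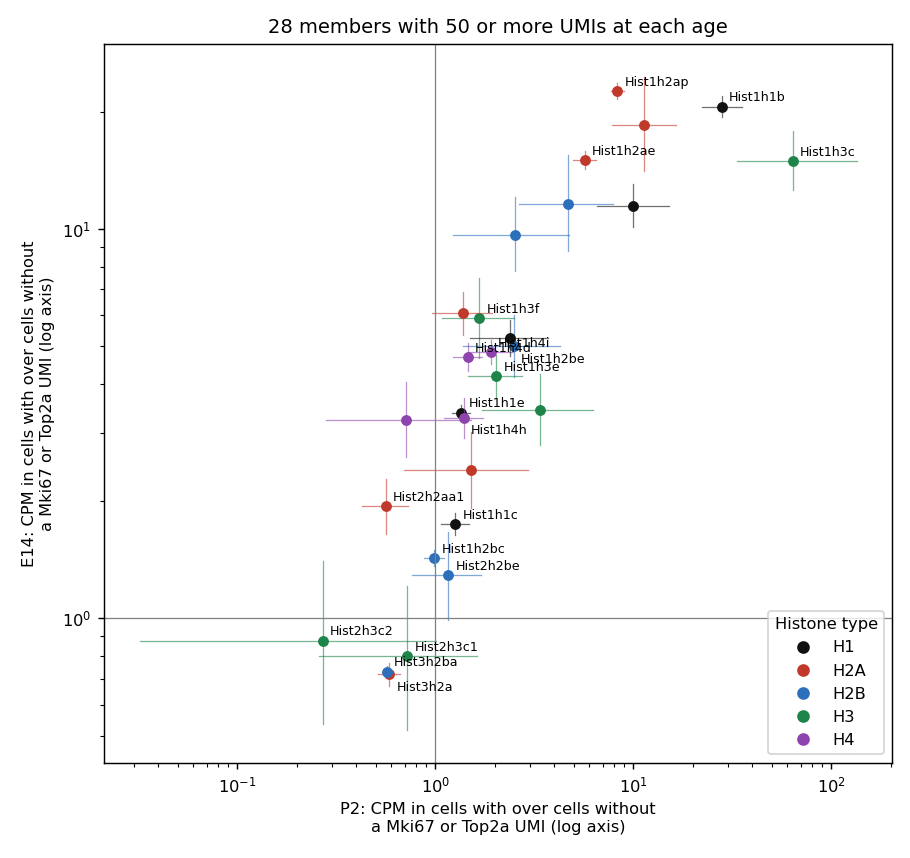
Ratio of CPM in cells with over cells without a Mki67 or Top2a UMI, at P2 (x axis) and E14 (y axis), on log axes, for 28 members with at least 50 UMIs at each age, coloured by histone type, with 95% intervals. Hist1h1b (27.9 and 20.6) and Hist1h2ap (8.32 and 22.6) are high at both ages, while Hist3h2ba (0.570 and 0.730) and Hist3h2a (0.585 and 0.718) are below 1 at both.

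By histone type, the P2 ratio of cells with over cells without was 2.51 for H2A, 3.18 for H3, 1.98 for H1, 1.52 for H4 and 0.664 for H2B. At E14 it was 9.43 for H2A, 6.09 for H3, 6.01 for H1, 4.31 for H4 and 1.26 for H2B. Hist3h2ba gave 342 of the 464.7 CPM of H2B in P2 cells with and 159 of the 392.4 CPM in E14 cells with. Within P2 classes, H2B had 1209 CPM in hair cell-like cells with and 1557 CPM in those without. It had 341.1 and 359.3 CPM in supporting cell-like cells, and 323.4 and 294.7 CPM in unnamed cells. Of 15 H2B members with 50 UMIs, 12 were at least 2-fold higher in E14 cells with, against 3.65% of all genes, and their median ratio was 7.06.

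Among the linker histones, Hist1h1b, which encodes H1.5, had the highest ratios of cells with over cells without. It had 70.3 CPM in P2 cells with and 2.52 CPM in P2 cells without, a ratio of 27.9 (22.2 to 35.4), and 405.0 and 19.7 CPM at E14, a ratio of 20.6 (19.4 to 21.9). Of its UMIs in P2 cells with, 81.5% came from cluster 17. P2 over E14 was 0.0577 over all cells and 0.0432 (0.0313 to 0.0584) in supporting cell-like cells. Hist1h1e and Hist1h1c were lower in that ratio, at 1.35 (1.22 to 1.50) and 1.26 (1.07 to 1.48) at P2 and 3.38 (3.23 to 3.53) and 1.75 (1.64 to 1.87) at E14. Hist1h1a, which encodes H1.1, had 2.12 CPM at P2 and 21.5 CPM at E14.

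Among the H2A genes, Hist1h2ap and Hist1h2ae led. Hist1h2ap had 326 CPM in P2 cells with and 39.2 CPM in P2 cells without, and 737 and 32.6 CPM at E14, so the ages differed more in cells with than in cells without. Hist1h2ae stood at 5.69 (4.97 to 6.49) at P2 and at 15.0 (14.3 to 15.8) at E14, with 431 and 28.7 CPM there. Hist1h2af had 16 UMIs in P2 cells with and 0 in P2 cells without, which makes it at least 60.4-fold higher against a floor of 3 UMIs over the group, and 59.6-fold (35.1 to 110.2) higher at E14, the highest of the 54 members counted. Hist1h2an had 9 UMIs at P2 and 834 at E14, and Hist1h2ag had 4 and 672, ratios of 0.0198 (0.0090 to 0.0377) and 0.0109 (0.0030 to 0.0280) in CPM. Hist2h2aa1 stood on opposite sides of 1, a difference that was not tested, with 0.561 (0.425 to 0.729) at P2 and 1.94 (1.64 to 2.29) at E14. Within classes at P2 its ratio was 0.777 (0.517 to 1.12) in hair cell-like, 0.733 (0.383 to 1.29) in supporting cell-like and 0.826 (0.414 to 1.50) in unnamed cells, and these intervals held 1. Hist1h2ap shares all the 31-base words of its last 300 bases with Hist1h2ao. Hist1h2an shares 85.2% of them with other members, Hist1h2af 81.1% and Hist1h2ag 72.2%, so reads may have been divided or dropped among them. Over the whole family, 36 of the 67 members share over 50% of these words.

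Among the H2B genes, Hist3h2ba was lower in cells with at both ages over all kept cells, which mix classes with unlike levels of it. It had 342 CPM in P2 cells with and 600 CPM in P2 cells without (0.570, 0.539 to 0.604), and 159 and 218 CPM at E14 (0.730, 0.705 to 0.756). Within P2 classes its ratio was nearer to 1. It was 0.768 (0.705 to 0.835) in hair cell-like, 0.892 (0.802 to 0.990) in supporting cell-like and 0.734 (0.645 to 0.833) in unnamed cells. Hist1h2bc had 85.3 and 86.2 CPM at P2 (0.990, 0.879 to 1.11) and 109 and 76.6 CPM at E14 (1.43, 1.36 to 1.50). Hist1h2be, with 94 UMIs at P2 and 545 at E14, stood at 2.50 (1.39 to 4.27) at P2 and 5.00 (4.16 to 6.03) at E14. Hist2h2be, at 1.16 (0.765 to 1.71) at P2 and 1.29 (0.991 to 1.67) at E14, had intervals that held 1 at both ages. Hist1h2bk had 0 UMIs at P2 and 358 at E14, so against a floor of 3 UMIs its P2 level was at most 0.0153 of its E14 level. Hist1h2bf had 2 and 121 UMIs, a P2 over E14 ratio of 0.0303 (0.0036 to 0.112). Hist1h2bk and Hist1h2bf share 65.2% and 65.6% of the 31-base words of their last 300 bases with other members, so their reads may have been divided or dropped.

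The H3 genes were low. Hist1h3e had 7.25 CPM at P2 and 13.9 CPM at E14, and Hist1h3c had 1.61 and 14.2 CPM. Hist1h3c had 62 UMIs in P2 cells with and 11 in P2 cells without, a ratio of 63.8, and 14.9 (12.6 to 17.8) at E14. Hist1h3b had 20 UMIs in P2 cells with and 0 in P2 cells without, at least 75.5-fold higher, and 28.1 (18.7 to 44.2) at E14. Hist2h3c1 and Hist2h3c2, both of Hist2, went with neither group at E14, at 0.801 and 0.877 with intervals that held 1, and were higher at P2 over all cells, at 1.51 (1.15 to 1.99) and 1.71 (1.26 to 2.32). Hist2h3c2 was 5.37-fold (3.03 to 10.1) higher in hair cell-like than supporting cell-like cells at P2 and 6.21-fold (3.29 to 11.8) at E14. Hist1h3f, at 4.81 CPM at P2 and 4.35 CPM at E14, shares all 31-base words of its last 300 bases with Hist1h3e, and their values are uncertain for that reason.

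Among the H4 genes, Hist1h4i had 11.1 CPM at P2 and 43.6 CPM at E14, a ratio of 0.255 (0.232 to 0.280). Hist1h4d had 31.1 and 31.2 CPM, a ratio of 0.996 (0.933 to 1.06), although in cells with over cells without it stood at 1.46 (1.23 to 1.72) at P2 and 4.68 (4.31 to 5.09) at E14. Hist1h4h was higher at P2, with 18.1 CPM against 14.1 CPM at E14, a ratio of 1.28 (1.17 to 1.41), but it shares 66.3% of its end words with other members. Hist4h4, the only member of Hist4, had 37 UMIs at P2 and 187 at E14 and stood at 1.13 (0.822 to 1.54) in E14 cells with over cells without.

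**Figure D4:**
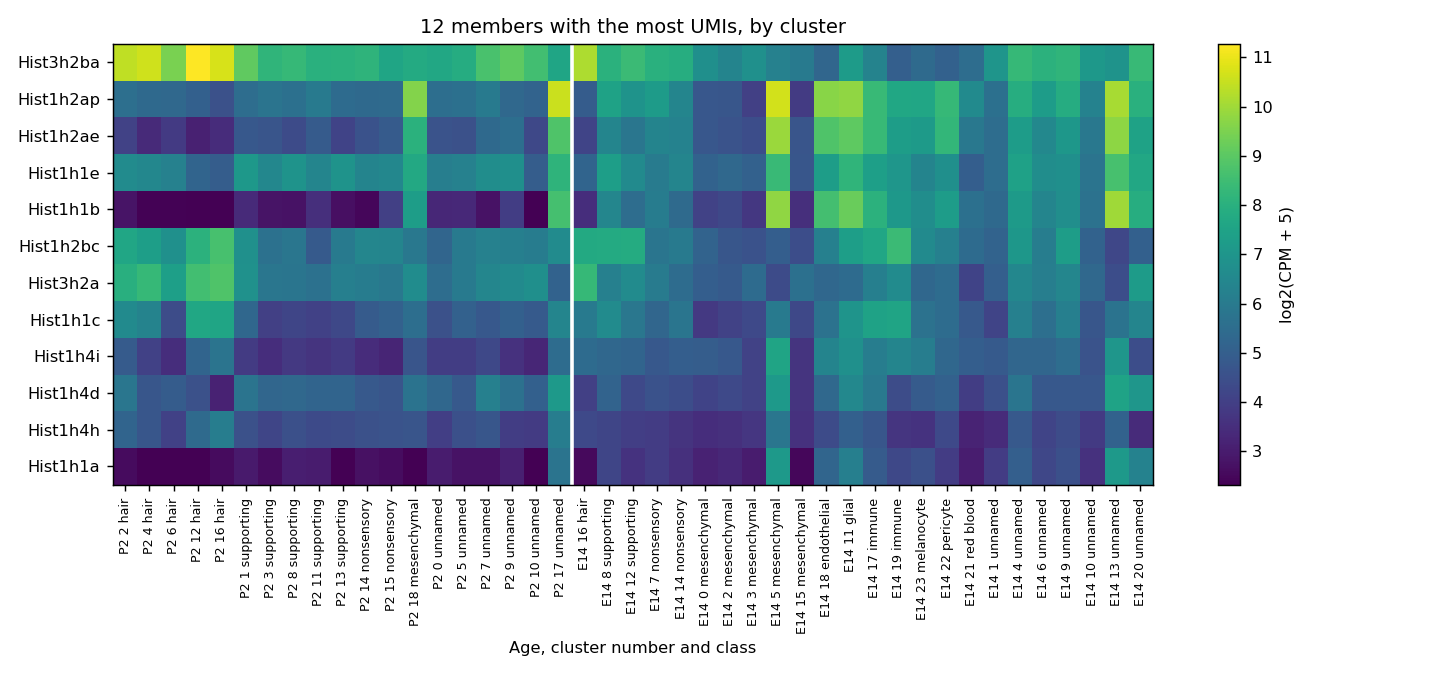
Log2(CPM + 5) of the 12 members with the most UMIs (rows) in the 19 clusters of P2 (left of the white line) and the 24 clusters of E14 (right), labelled by cluster number and class. Hist1h2ap, Hist1h2ae and Hist1h1b are bright in P2 cluster 17 and E14 clusters 5 and 13, and Hist3h2ba and Hist3h2a in the hair cell-like clusters.

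Over the clusters of a library, Hist1h2ap ranged between 1505 CPM in cluster 17 and 18.3 CPM in cluster 16 at P2, and between 1602 CPM in cluster 5 and 9.61 CPM in cluster 15 at E14. As a description, its log2 level and the percentage of cells with had a Pearson r of 0.74 over 19 clusters at P2 and 0.77 over 24 clusters at E14, and that of Hist3h2ba -0.29 and -0.21. Clusters of a library share its free RNA and differ in depth. The genes outside the family with the levels most like the summed members over the 43 clusters were Rfc2, Fzr1, Kpna2, Plk1, Rangap1, Nek2, Dynlt1a, Plk4, Anp32e and H2afx, with r between 0.77 and 0.70 among 9819 genes with at least 1000 UMIs.

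Among E14 cells with, thinned to 4000 UMIs, the members were highest at an intermediate balance of S phase and G2/M phase genes. Cells were split into 3 ranges of the S phase share of their S and G2/M phase UMIs, with Mki67 and Top2a left out of the G2/M genes. Cells that carried neither gene were not among the cells with, so S phase cells without them are missing from these ranges. The lowest range (402 cells, median share 8.51%) had 2951 CPM (2868 to 3036), the middle (397 cells, 25.3%) 5029 CPM (4919 to 5140) and the highest (407 cells, 53.6%) 3915 CPM (3819 to 4012). Hist1h1b had 341.4, 820.5 and 658.5 CPM in these ranges, while Hist1h2bc had 167.9, 115.2 and 35.0 CPM. These are ranges of a score, and 244, 138 and 138 cells of the ranges lay within 5 percentage points of a boundary.

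Other genes of the system are set beside the shares of all genes, of which 3.65% were at least 2-fold higher and 4.38% lower in E14 cells with, and 18.5% were at least 2-fold higher and 15% lower at P2. Of 42 S phase genes, 31 were at least 2-fold higher in E14 cells with and 30 at least 2-fold lower at P2, and of 52 G2/M phase genes, which include Mki67 and Top2a themselves, 48 and 43 were. Of 11 histone genes outside the clusters, 4 were at least 2-fold higher in E14 cells with: Cenpa, the centromeric H3 (12.8-fold), H2afx, the H2A of DNA damage signalling (5.38-fold), H2afz and H1fx (2.30-fold). H3f3a and H3f3b, which encode the replication-independent H3.3, were at 1.02-fold and 1.05-fold. Of 13 genes for histone mRNA processing and transcription, 0 were at least 2-fold higher or lower in E14 cells with or between the ages, with Slbp at 1.84-fold. Of 13 histone chaperones measured, 4 were at least 2-fold higher in E14 cells with, led by Asf1b (14.9-fold) and Chaf1a (4.37-fold). Slbp, Nasp, Casp8ap2, Chaf1b and Cenpa stand in more than 1 of these lists.

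The annotated 3′ ends and the levels were set side by side. Transcripts of 23 members ran over 100 bases past the stem-loop and held 60.8% of the UMIs, 23 ended within 100 bases of it and held 21.4%, and 21 had none in the model and held 17.8%. Hist3h2ba alone gave 42823 of the 99106 UMIs of the members that ran past it. The medians per member were nearer, at 459, 361 and 117 UMIs. Over members with 50 UMIs, the median ratio of E14 cells with over cells without was 4.39 in the 22 members that ran past it (0.718 to 15.0), 8.02 in the 18 that ended near it (1.94 to 28.1) and 8.91 in the 15 with none (1.29 to 59.6). The ranges overlapped, and the 4 members below 1, Hist3h2ba, Hist3h2a, Hist2h3c1 and Hist2h3c2, ran past the stem-loop. A poly(A) signal lay in the last 50 bases of 16 of 67 member transcripts (23.9%) and of 50.2% of other protein-coding transcripts, and these 16 held 49.3% of the UMIs. Hist3h2ba is among these 16, whose median was 427 UMIs per member, against 361 in the 51 members without a signal. Hist1h1b is among the models with no stem-loop, and its model ends on a stop codon (tag). The models of Hist1h1a and Hist2h3b break off inside the letters of a stem-loop. The group with none thus holds models that are cut short and need not be a class of transcript ends. How complete its other models are was not tested.

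**Figure D5:**
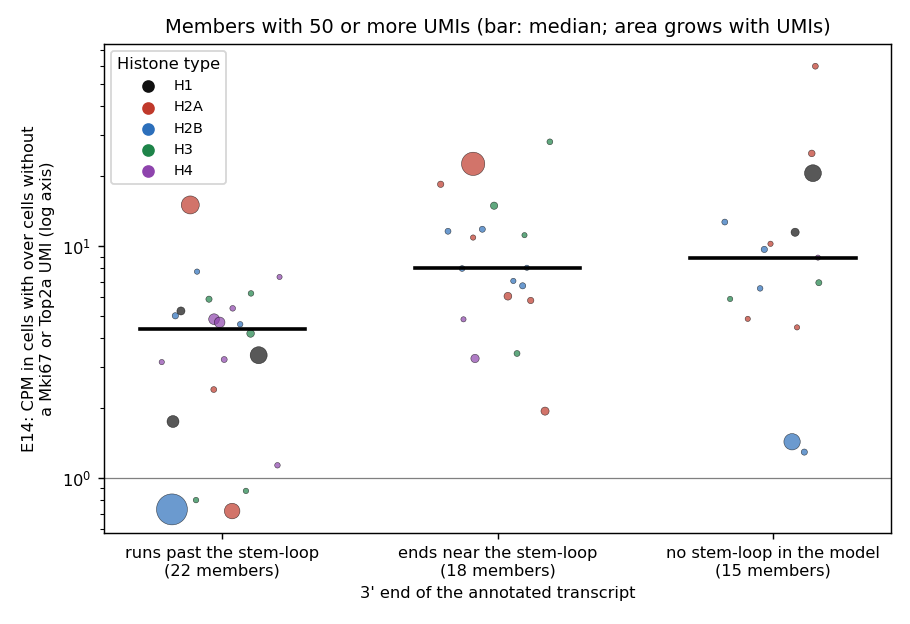
Ratio of CPM in E14 cells with over cells without a Mki67 or Top2a UMI (log axis) for 55 members with at least 50 UMIs, by the annotated 3′ end of the transcript, coloured by histone type, with area growing with UMIs and bars at the medians of 4.39, 8.02 and 8.91. The large point below 1 on the left is Hist3h2ba.

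Promoters are shown for the member with the most UMIs and for Hist1h2ae, whose window overlaps that of an H2B gene on the other strand, from RefSeq (GRCm38.p6), 250 bases before and 50 after the start, 5′ to 3′ on the gene's strand. Capitals mark the octamer ATTTGCAT, TATAAA and CCAAT, each on either strand.
Hist3h2ba, chr11:58948661-58948960, plus strand: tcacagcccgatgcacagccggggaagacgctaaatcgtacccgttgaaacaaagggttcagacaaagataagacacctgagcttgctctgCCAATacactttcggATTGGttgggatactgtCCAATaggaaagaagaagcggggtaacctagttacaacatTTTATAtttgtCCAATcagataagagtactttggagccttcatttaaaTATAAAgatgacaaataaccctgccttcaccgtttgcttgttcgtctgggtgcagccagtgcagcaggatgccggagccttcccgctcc
Hist1h2ae, chr13:23571171-23571470, minus strand: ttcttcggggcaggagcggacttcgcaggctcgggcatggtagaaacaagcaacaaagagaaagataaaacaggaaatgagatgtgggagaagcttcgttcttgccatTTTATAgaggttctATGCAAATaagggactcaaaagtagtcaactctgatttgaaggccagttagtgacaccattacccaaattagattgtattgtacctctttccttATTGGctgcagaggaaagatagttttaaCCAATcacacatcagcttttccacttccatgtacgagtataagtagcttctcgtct
Promoters of 61 members were matched within 100 bases of the GENCODE start. The octamer occurred in 7 of 18 H2A and 6 of 16 H2B promoters, in 0 of 5 H1, 0 of 10 H3 and 0 of 12 H4 promoters and in 1.74% of all 32851 promoters. CCAAT occurred in 52 of 61 member promoters, with 3 of 12 among H4, and in 37.4% of all, and TATAAA in 34 of 61 and in 13.6% of all. A match is only a run of letters. Some windows of an H2A and an H2B gene overlap, and either strand was searched, so 1 match can count for both genes. The octamer printed for Hist1h2ae lies in such an overlap, so the H2A and H2B counts are not independent.

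There were 10 pairs of an H2A and an H2B gene on opposite strands with overlapping promoter windows. The window of Hist1h2ae overlaps that of the H2B gene Hist1h2bg by 279 bases, yet Hist1h2ae had 13726 UMIs and Hist1h2bg 210, a 65.4-fold difference in counts over both libraries. Hist1h2ap had 23669 UMIs and its H2B partner Hist1h2br 257, a 92.1-fold difference. In contrast, Hist1h2bj had 568 and Hist1h2ag 676 UMIs. Over the 6 pairs in which both members had 50 UMIs, the fold between partners ranged between 1.08 and 92.1, with a median of 7.57. The members of these 6 pairs were between 4.59-fold and 25.1-fold higher in E14 cells with than in cells without. Counts of different genes are not corrected for what part of a transcript was annotated or for shared sequence, and the part of either in these folds was not tested.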

How the data were processed

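Single-cell suspensions were sequenced with a 10x Genomics 3′ kit that primes on poly(A). The deposited files hold UMI counts per gene and barcode, made by the authors, whose processing notes name Cell Ranger 3.1.0, Seurat 4.1.1 and both GRCm39 and mm10. Which build the counts rest on was not settled, so genes were joined to GENCODE M21 by ID and coordinates are those of GRCm38. The deposited tables hold 6251 barcodes at P2 and 15636 at E14, with 57003553 and 122892080 UMIs.

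The barcode filter asked for 500 genes and 1000 UMIs or more and allowed mitochondrial UMIs of up to 15%. Doublets were scored against doublets built from pairs of cells, and the highest 204 at P2 and 1450 at E14 were removed (0.8% per 1000 barcodes). Each library was clustered alone (scanpy 1.11.5, leidenalg 0.10.2, 2000 variable genes, 30 components, 15 neighbours, resolution 1) without the members, the lists, mitochondrial, ribosomal protein and haemoglobin genes. A cluster took a name with at least 3 markers, each in at least 10% of cells, at least 2-fold above the rest with 5 CPM added and at least 20% of the highest cluster, with no tie between classes, and its 10 leading genes could not hold more markers of a different class. Where its median UMIs lay below 33.3% of the library's, these leading genes had to include 1 marker of its own class. Cell names were rebuilt here and can differ from those of the study. The naming rule came from earlier work on these data, and the members and gene lists were chosen with earlier results of these data known.

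Levels are summed UMIs scaled to 1000000 with exact Poisson intervals, and ratios have exact conditional binomial intervals (scipy 1.17.1), at 95%. Ratios of single members needed 50 UMIs over both groups to be counted, and a group at 0 was set to a floor of 3 UMIs. The ratio script was checked on simulated data. Named members are the 3 with the most UMIs of each histone type, the 5 highest and 5 lowest ratios of P2 over E14 and of E14 cells with over without among members with 100 UMIs, and all of Hist3 and Hist4. The clusters compared among hair cell-like cells, and Hist1h1a, Hist1h2bg, Hist1h2br, Hist1h2bj and the members with 0 or 1 UMI, were chosen after their values were seen. Alternatives changed the barcode filter, doublets, denominators, clustering, the call of cells with, and thinning to 4000 UMIs. Cells with fewer than 4000 UMIs were left out of all thinned values. No column of other samples was used.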

Additional observations from a re-analysis of the deposited data

Results flagged for a closer look

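The 6 results below had intervals on opposite sides of 1 in the 2 groups compared, and none of these differences was itself tested, since each age has 1 library. The summed members stood at 1.10 P2 over E14 in hair cell-like cells and 0.545 in supporting cell-like cells. Within P2, the summed ratio of cells with over cells without was 0.807 (0.756 to 0.861) in hair cell-like cells (31 cells with) and 1.14 (1.07 to 1.21) in supporting cell-like cells (39 cells with), where the thinned shares of cells with were 0.871% and 1.01%, with overlapping intervals. Hist1h1e stood at 2.16 P2 over E14 in hair cell-like and 0.749 in supporting cell-like cells. Hist1h1c stood at 1.32 (1.10 to 1.60) and 0.169. Hist1h2ap stood at 1.35 (1.02 to 1.81) and 0.323 (0.296 to 0.351). Hist2h2aa1 stood at 0.561 in cells with over cells without at P2 and 1.94 at E14. Within the hair cell-like, supporting cell-like and unnamed cells of P2 it stood at 0.777, 0.733 and 0.826, with intervals that held 1.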

How the results depend on the processing

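No paired analysis was possible because each age has 1 library. The summed P2 over E14 ratio over all cells (0.853) was 0.839 with no barcode filter, 0.809 with doublets kept, 0.796 with mitochondrial, ribosomal protein and haemoglobin genes out of the denominator and 0.494 without Hist3h2ba, and stood above 1 after thinning (1.02) and in cells without Mki67 or Top2a alone (1.71). The hair cell-like ratio (1.10) was 1.03 with at least 2000 UMIs, 1.57 with doublets kept, 1.17 after thinning, 1.15 in cells without and 0.993, below 1, without Hist3h2ba. The supporting cell-like ratio (0.545) was 0.440 with doublets kept, 0.410 without Hist3h2ba, 0.601 and 0.526 at Leiden resolutions 0.5 and 2, and 0.658 in cells without. Cells with over cells without at E14 (4.37) gave 3.75 with no filter, 4.44 with at least 2000 UMIs, 3.64 with doublets kept, 4.24 with the smaller denominator, 6.17 without Hist3h2ba, 6.52 after thinning, 5.99 with both genes needed and 5.39 with at least 2 UMIs needed. At P2 (1.25) they gave 1.21 with no filter, 1.21 with doublets kept, 2.04 without Hist3h2ba, 2.47 after thinning, 2.32 with both genes and 1.79 with at least 2 UMIs. Alternatives chosen after seeing the data gave 0.549 without the hair cell-like class over all cells, 0.529 for the supporting cell-like ratio without cluster 1, 3.09 at E14 without clusters 5 and 13, 0.878, below 1, at P2 without cluster 17, and 22 in place of 42 members at least 2-fold apart between the ages in cells without. The cause of these shifts was not tested. Of the values of single named members under the alternatives, 112 moved within their counting interval, 44 moved beyond it and 0 of those whose interval lay to 1 side of 1 changed side. Class ratios with no barcode filter were not run, since unfiltered barcodes had no class.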

Other observations

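The 5 supporting cell-like clusters of P2 had between 24.3 and 107.6 CPM of Hist1h2bc, the highest of them in the shallow cluster 1, against 219.3 CPM in cluster 8 (led by Tectb and Otol1) and 224.2 CPM in cluster 12 (led by Zpld1 and Hes5) of E14. In the E14 immune cell-like cluster 19, led by Cxcl2 and C1qa, Hist1h2bc reached 341.0 CPM and Hist1h1c 183.5 CPM, the highest of the 24 clusters for both. A single mesenchymal cell-like cell with Mki67 or Top2a at P2 held 227 member UMIs.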
